A study of Homo sapiens with 12 samples.

Results

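The comparison described here is the knockdown of circASH2 in HCCLM3 cells: 3 libraries given an siRNA against circASH2 (si-circASH2) against 3 libraries given a negative control siRNA (si-NC), 6 of the 12 RNA-seq libraries of the series. They were chosen by their labels, and no measured value entered the choice. HCCLM3 is an established human hepatocellular carcinoma line derived from metastases and known for spreading readily in mice. The other 6 libraries are the same pair of groups, 3 and 3, in Huh7, a hepatocellular carcinoma line that retains many liver functions, and serve only to test which responses differ between the lines. Both groups of a line are unmodified apart from the siRNA, as far as the labels say, and the stated aim of the study was the role of circASH2 loss in metastasis. Each line stands for 1 tumour, the labels name a single agent against the circle, and nothing in the labels tells whether replicate libraries were grown apart. The p-values therefore cover only the variation seen among these 3 and 3 libraries, part or all of which may be technical.

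Circular RNAs are closed loops that form when the end of an exon is joined back to an upstream exon of the same transcript. circASH2 takes its name from ASH2L, which encodes a core subunit of the complexes that methylate histone H3 at lysine 4. An siRNA guides an Argonaute protein to transcripts that pair with it. Full pairing leads to cleavage, and pairing of only the first bases of the guide with a 3′ untranslated region (UTR) is known to lower transcripts as a microRNA would. Neither siRNA sequence is known from the labels.

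The 6 libraries held between 29006781 and 30667654 counts, so 3 counts in 1 library were worth between 0.0983 and 0.105 CPM, counts scaled to library size. Levels below are in CPM, with TMM factors applied, and with the SD over 3 libraries. A log2 fold change is si-circASH2 over si-NC with the standard error of the model, n = 3 per group throughout. The log2 CPM of libraries of the same group correlated between 0.9904 and 0.9917 across features, and those of different groups between 0.9834 and 0.986. The first principal component held 45.7% of the variance. Along it every library lay with its own group, si-NC between -25.0 and -20.4 and si-circASH2 between 19.8 and 24.5. Along the next component (14.8%) the si-NC libraries stayed close, between -2.64 and 2.53. There the si-circASH2 libraries were widely spread, at -23.7, 5.24 and 20.0 for replicates 1, 2 and 3. The share of mitochondrial transcripts was 7.24% to 7.61% with si-NC and 6.94% to 8.42% with si-circASH2.

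The cells carried the markers of their label in part. KRT8 and KRT18, the simple keratins of hepatocytes, stood at 3936 ± 64.7 and 1462 ± 40.6 CPM in si-NC libraries, and the liver transcription factor HNF4A at 94.9 ± 2.75 CPM. ALB (3.24 ± 1.06 CPM), AFP (3.35 ± 0.547) and TTR (0.574 ± 0.148) were low, and SERPINA1 was at most 2 counts in any library. The 10 hepatocyte markers summed to between 5530 and 5689 CPM in si-NC and between 5667 and 5799 CPM in si-circASH2 libraries, nearly all of it KRT8 and KRT18. Of the markers of other cell types, POSTN (fibroblasts), CDH5, FLT1 and TIE1 (endothelium) and CD3E and MS4A1 (lymphocytes) were at 0 in all 6 libraries.

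The circle itself was not measured, since a gene count does not separate it from the linear transcripts of its host. ASH2L stood at 34.3, 31.2 and 31.9 CPM in the si-NC libraries and at 28.2, 28.1 and 26.4 CPM in the si-circASH2 libraries. The groups did not overlap, and the gene fell by a small amount, with a fitted log2 value of -0.24 ± 0.06 (adjusted p = 0.00192 in edgeR). ASH2L level therefore does not show how far circASH2 was lowered.

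Of 23583 features, 14842 had enough counts to be tested with edgeR's quasi-likelihood test, 12971 with a gene symbol and 1871 known only by an assembled identifier. After si-circASH2, 2965 features were higher (20.0% of those tested) and 2934 lower (19.8%), 39.7% in all, and 8943 did not pass. In 7274 features (49.0%) the 3 libraries of one group all lay on the same side of the 3 of the other. An exact two-sided permutation test on a single gene cannot go below p = 0.1 with the 20 arrangements of 3 against 3 libraries, so calls rest on the model that shares the spread across genes.

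The response was broad and shallow. The median size of a called log2 fold change was 0.28, with quartiles of 0.19 and 0.47, and 77.8% of the called features changed by less than 0.5. When the fold itself was tested against 2 with glmTreat, 30 features passed (0.202% of those tested), 17 higher and 13 lower. Replicates were tight, with a common biological coefficient of variation of 5.11%.

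**Figure D1:**
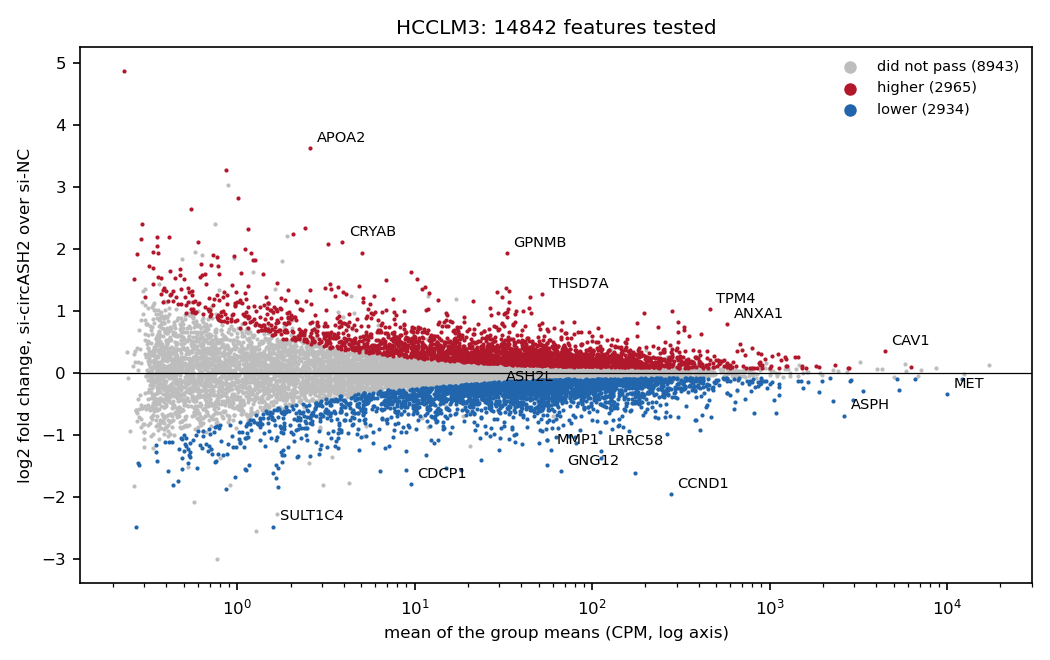
Log2 fold change after si-circASH2 in HCCLM3 (vertical axis) against the mean level in CPM on a log axis, 1 point per tested feature, coloured by the edgeR call. Calls spread evenly around 0 (2965 higher and 2934 lower), CCND1 stands apart among falls at a high level, and the largest rises, such as APOA2 and CRYAB, lie at low levels.

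CCND1, cyclin D1, the partner of CDK4 and CDK6 that drives cells through G1, had the largest fall among genes of at least 5 CPM. It stood at 441, 449 and 442 CPM with si-NC and at 111, 117 and 115 CPM with si-circASH2, a 3.88-fold drop (log2 fold change -1.96 ± 0.03, edgeR adjusted p = 6.22e-30). The groups were far apart compared with their spread. CDCP1, a surface protein that binds SRC-family kinases, went from 13.4, 16.5 and 14.7 to 4.25, 3.99 and 4.54 CPM (-1.80 ± 0.11). GNG12, a gamma subunit of heterotrimeric G proteins, went from 100.3, 103.7 and 98.0 to 36.8, 31.5 and 32.2 CPM (-1.59 ± 0.05). Other large falls included surface and secreted proteins. CLDN2, a tight junction protein that forms cation pores, fell from 13.4 ± 1.04 to 4.51 ± 0.404 CPM, and SLC1A7, a glutamate transporter, from 9.63 ± 1.13 to 3.21 ± 0.704 CPM. MMP1, a collagenase, stood at 80.8, 87.6 and 78.5 CPM and then at 34.1, 36.5 and 33.6 CPM, and PLAT, which activates plasminogen, at 35.6, 33.2 and 34.5 and then at 13.1, 13.4 and 12.4 CPM. In both the highest si-circASH2 library was below every si-NC library.

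The remaining genes among the 15 largest falls had varied roles. MICB (27.4 ± 0.766 to 9.27 ± 0.421 CPM) encodes a ligand of the natural killer cell receptor NKG2D, and BIRC3 (81.9 ± 6.17 to 29.1 ± 0.876 CPM) an inhibitor of apoptosis that acts in NF-kB signalling. GAL3ST1, the enzyme that makes sulfatide, went from 21.8, 22.1 and 23.4 to 7.75, 7.94 and 7.63 CPM. RDH10, the retinol dehydrogenase that begins retinoic acid synthesis, fell from 161 ± 6.61 to 62.1 ± 5.9 CPM, and UPB1, an enzyme of pyrimidine breakdown, from 16.6 ± 0.589 to 6.63 ± 0.165 CPM. B3GALT5, which makes type 1 chains of glycans, fell from 41.9 ± 2.89 to 17.6 ± 1.97 CPM. LRRC58 (159 ± 6.13 to 66.3 ± 1.79 CPM) and MROH6 (12.7 ± 0.658 to 5.29 ± 1.1 CPM) complete the set. Their log2 fold changes lay between -1.96 (CCND1) and -1.24 (MMP1), and the largest edgeR adjusted p was 3.77e-10 (MROH6).

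GPNMB, a membrane glycoprotein of lysosomes and melanosomes on chromosome 7 (23235967 to 23275108), was the largest rise with a level above 10 CPM in both groups. It stood at 12.2, 15.2 and 13.95 CPM with si-NC and at 54.7, 54.5 and 48.5 CPM with si-circASH2 (log2 fold change 1.93 ± 0.07, edgeR adjusted p = 3.73e-18). CRYAB, a small heat shock protein, went from 1.28, 1.43 and 1.70 to 7.34, 6.02 and 5.75 CPM (2.11 ± 0.17), and BTC, a ligand of the EGF receptor, from 2.12, 2.03 and 2.13 to 8.77, 8.04 and 7.23 CPM (1.94 ± 0.14). Both started from low levels, and in neither did the groups overlap. FLNC, a filamin that crosslinks actin, stood at 17.6, 19.8 and 17.7 CPM and then at 46.3, 53.2 and 42.7 CPM. KLF2, a transcription factor best known from endothelium and quiescent T cells, stood at 6.02, 5.97 and 6.52 CPM and then at 15.5, 15.6 and 16.03 CPM. KCNE4, an accessory subunit of potassium channels, stood at 15.7, 16.9 and 17.5 CPM and then at 41.4, 40.7 and 42.5 CPM. For KLF2 and KCNE4 the spread within a group was under 2 CPM, against a difference of 9.55 and 24.8 CPM.

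The other large rises were THSD7A, a membrane protein with thrombospondin repeats (30.7 ± 2.22 to 74.1 ± 3.26 CPM), MT2A, a zinc-binding metallothionein (5.34 ± 0.741 to 15.3 ± 3.13 CPM), and ENPP2, the secreted enzyme autotaxin that makes lysophosphatidic acid (7.03 ± 1.85 to 17.2 ± 0.528 CPM). PRAP1 rose from 6.35 ± 0.574 to 16.5 ± 2.14 CPM and FAM167A from 3.59 ± 0.186 to 10.2 ± 1.1 CPM. CNTN6 and DNER, neuronal membrane proteins that act through Notch receptors, and PPL, a plakin of cell junctions, were below 3 CPM with si-NC and between 5.24 and 7.09 CPM on average with si-circASH2. MT2A has near-identical relatives among the metallothioneins, so its count is uncertain, and how reads were shared is not known. A few genes past the 2-fold test lie outside these sets and are named because they passed it. SULT1C4, a sulfotransferase, fell from 2.72 ± 0.413 to 0.481 ± 0.184 CPM. APOA2, an apolipoprotein of HDL, went from 15, 10 and 9 counts to 127, 162 and 138 counts. DEFB1, a defensin, went from 18, 24 and 29 counts to 115, 136 and 111, and ABCA13, a lipid transporter, from 19, 23 and 22 to 128, 90 and 86. S100A2, a calcium-binding protein, rose from 18.6 ± 0.36 to 43.3 ± 2.43 CPM, and FCGBP, a mucin-like secreted protein, from 26.7 ± 2.6 to 62.2 ± 3.4 CPM.

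**Figure D2:**
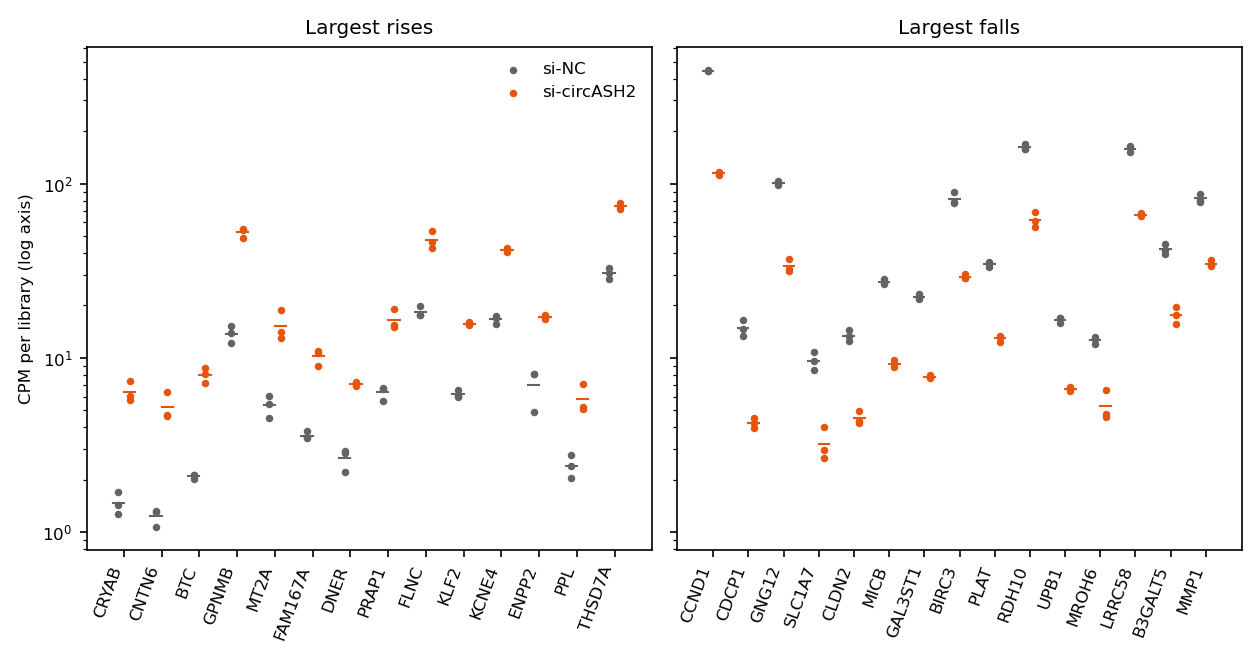
CPM of each library on a log axis for 14 of the 15 genes with the largest rise (left) and the 15 with the largest fall (right), all reaching 5 CPM; grey points are si-NC, orange points si-circASH2 and short lines the group means. In all 29 genes shown the 3 libraries of one group lie wholly above or below those of the other, which the rule for naming them required.

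In CPM, most of the largest shifts came from abundant transcripts with folds under 2. The exception among the 8 largest rises and 8 largest falls was TPM4, described with the tropomyosins, which rose 2.04-fold. MET, the receptor of hepatocyte growth factor, stood at 11242, 11711 and 10679 CPM with si-NC and at 9015, 8904 and 8600.0 CPM with si-circASH2 (log2 fold change -0.34 ± 0.03, edgeR adjusted p = 2.69e-10). ASPH, a hydroxylase of EGF-like domains, went from 3304, 3284 and 3195 to 2057, 2001 and 2009 CPM (-0.69 ± 0.03). The groups lay far apart compared with their spread. FTH1, the ferritin heavy chain, fell by 0.28 ± 0.03 on the log2 scale, SQSTM1, the autophagy receptor p62, by 0.46 ± 0.03, and CEACAM6, a surface adhesion protein, by 0.64 ± 0.03. CAV1, the coat protein of caveolae, stood at 3910, 3930 and 3874 CPM and then at 5103, 5073 and 4796 CPM (0.35 ± 0.03). ANXA1, a phospholipid-binding annexin, rose from 424 ± 8.41 to 732 ± 24.0 CPM (0.79 ± 0.03), CES1, a liver carboxylesterase, from 684 ± 5.65 to 904 ± 8.99 CPM (0.40 ± 0.03), and NAMPT, which makes the NAD precursor, from 1275 ± 23.5 to 1517 ± 29.6 CPM. FTL and GAPDH passed the test with overlapping groups and log2 fold changes of -0.10 ± 0.03 and 0.10 ± 0.03. Both calls were lost when some libraries were left out, with an edgeR adjusted p of up to 0.101 for FTL (without si-NC replicate 3) and 0.281 for GAPDH (without si-circASH2 replicate 2).

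Some short sequences in the 3′ UTR were held more often by genes that fell, and others by genes that rose. Among 15862 sequences of 7 bases searched in the 3′ UTRs of 11709 genes, the pair with the lowest mean fold change overlaps to form the octamer TTATACCA, and the pair with the highest overlaps to form TCGGAGAA. The 3′ UTRs below show, in capitals, one of these octamers or a 7-base member of a pair, in selected genes that hold one and changed in the matching direction. In MICB that member is printed with the base after it (TTATACCG, in 33 of the 3′ UTRs or 0.282%) and in NOLC1 and IL7R with the base before it (ATCGGAGA, in 59 or 0.504%). The sequences run 5′ to 3′ on the transcript strand (GENCODE 29, GRCh38). The first 8 are genes that fell and the last 6 genes that rose, picked after their fold changes were known. The longest annotated 3′ UTR of each gene was searched, and bases that are 3′ UTR in the transcript used may be coding in another. That holds for ZNF616 too, with 3 copies of TCGGAGAA in a 3′ UTR of 2247 bases, and was not tested. COMMD3 and RTN4 fell by 1.15 and 0.93 on the log2 scale, and CDK14, IL7R and NOLC1 rose by 1.72, 1.16 and 0.80. These genes lie outside the sets named by rule, and their levels are not given here.
CCND1 (chr11:69651577-69651583, plus strand): gatagaggattTTATACCccaataatcaa
CDCP1 (chr3:45083608-45083615, minus strand): cacaccctcatTTATACCAattacctgccc
GNG12 (chr1:67703376-67703383, minus strand): aattacttttaTTATACCAttatgtgcatg
MICB (chr6:31511094-31511101, plus strand): gtgtgcataatTTATACCGtaaatgtttac
GAL3ST1 (chr22:30554742-30554749, minus strand): tatttaactaaTTATACCAgtttttattaa
LRRC58 (chr3:120330049-120330055, minus strand): agtcattgtccTTATACCtaatggaacag
COMMD3 (chr10:22320121-22320128, plus strand): tccttttgaatTTATACCAttcatcaattt
RTN4 (chr2:54972276-54972283, minus strand): aaaatgaagatTTATACCAttgtggtttaa
TPM4 (chr19:16101493-16101500, plus strand): aatattttgtaTCGGAGAAgctttgagcac
CDK14 (chr7:91209262-91209269, plus strand): aggcagcttctTCGGAGAAgtgaaatataa
ZNF616 (chr19:52115624-52115631, minus strand): cttgcagtgcaTCGGAGAAttcatactgga
NOLC1 (chr10:102162303-102162310, plus strand): caagggtgatgATCGGAGActacttacttt
IL7R (chr5:35879102-35879109, plus strand): taaacctcctgATCGGAGAcaatgtattaa
G3BP2 (chr4:75644103-75644110, minus strand): tactgcaatttTCGGAGAAaagaacagcag

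The ranking used the fold changes themselves, so the values that follow describe it and test nothing. Genes with TTATACC in the 3′ UTR (1009 genes, 8.62%) had a mean log2 fold change lower by 0.129 than other genes after length and base composition were taken into account (difference -0.129), and the next was TATACCA (1101 genes, -0.106), which shares 6 bases with it. At the other end stood TCGGAGA (258 genes, 0.11) and CGGAGAA (311 genes, 0.106). The lowest and highest 1% of all 15862 sequences began at -0.0317 and 0.0454. The octamer TTATACCA was in 443 of the 3′ UTRs (3.78%), and 211 of these genes (47.6%) were lower and 48 higher, against 21.6% lower among genes without it. TCGGAGAA was in 72 (0.615%), of which 33 (45.8%) were higher and 5 lower, against 22.4% higher among genes without it. 3′ UTRs that hold TTATACCA were longer, with a median of 3407 bases against 1300. Genes with more copies of TTATACC were more often lower: 20.8% of genes with none, 40.4% of 903 genes with 1 copy and 49.1% of 106 genes with at least 2. These shares were not adjusted for length, and 3′ UTRs with TTATACC had a median of 3345 bases against 1233 without it.

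The same letters were also counted elsewhere in the transcript. In coding sequence TTATACCA was held by 220 genes, of which 35.9% were lower against 22.3% of genes without it, and TCGGAGAA by 326, of which 40.5% were higher against 21.9%. In 5′ UTRs TTATACCA was held by 27 genes, of which 2 were lower (7.41%, against 22.6% without it), and TCGGAGAA by 64, of which 12 were higher and 11 lower (18.8% and 17.2%, against 22.5% and 22.6%). Of the 15 largest falls, 10 held TTATACC or TATACCA in the 3′ UTR, beside 1590 of all 11709 genes (13.6%), and of the 15 largest rises 0 held either of the higher-ranked pair. Most changed genes carried neither pair: of 2644 lower genes with a 3′ UTR 609 (23.0%) held the lower-ranked pair, and of 2634 higher genes 157 (5.96%) held the higher-ranked pair, against 11.8% and 4.01% of the genes that did not pass. The medians of the same genes in Huh7 had the same sign (-0.14 for TTATACCA and 0.17 for TCGGAGAA in 3′ UTRs). Whether the siRNA against circASH2 or the control siRNA pairs with these letters was not tested.

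**Figure D3:**
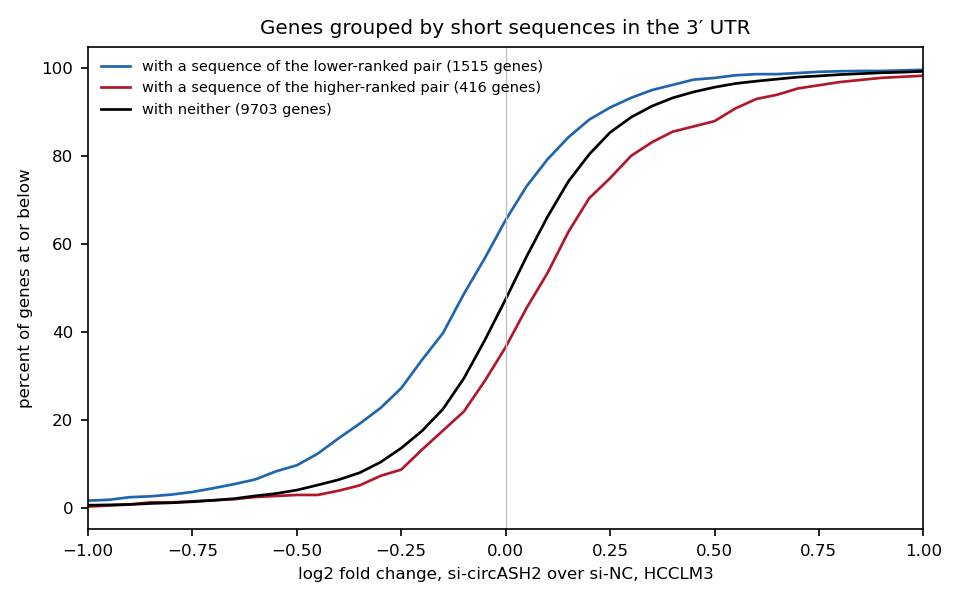
Percent of genes at or below each log2 fold change in HCCLM3, for 1515 genes whose 3′ UTR holds a 7-base sequence of the lower-ranked pair, 416 with one of the higher-ranked pair and 9703 with neither. The curve of the first class lies to the left (median -0.09, 39.2% called lower) and that of the second to the right (median 0.08, 32.9% called higher) of genes with neither (median 0.01, 20.3% lower and 23.4% higher).

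Gene groups are described next by how many of their tested members passed, to be read against 39.7% of all features (20.0% higher, 19.8% lower) and a median log2 fold change of 0.0063 over all features. Their members were not chosen independently of these data, and no test was made on a group.

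**Figure D4:**
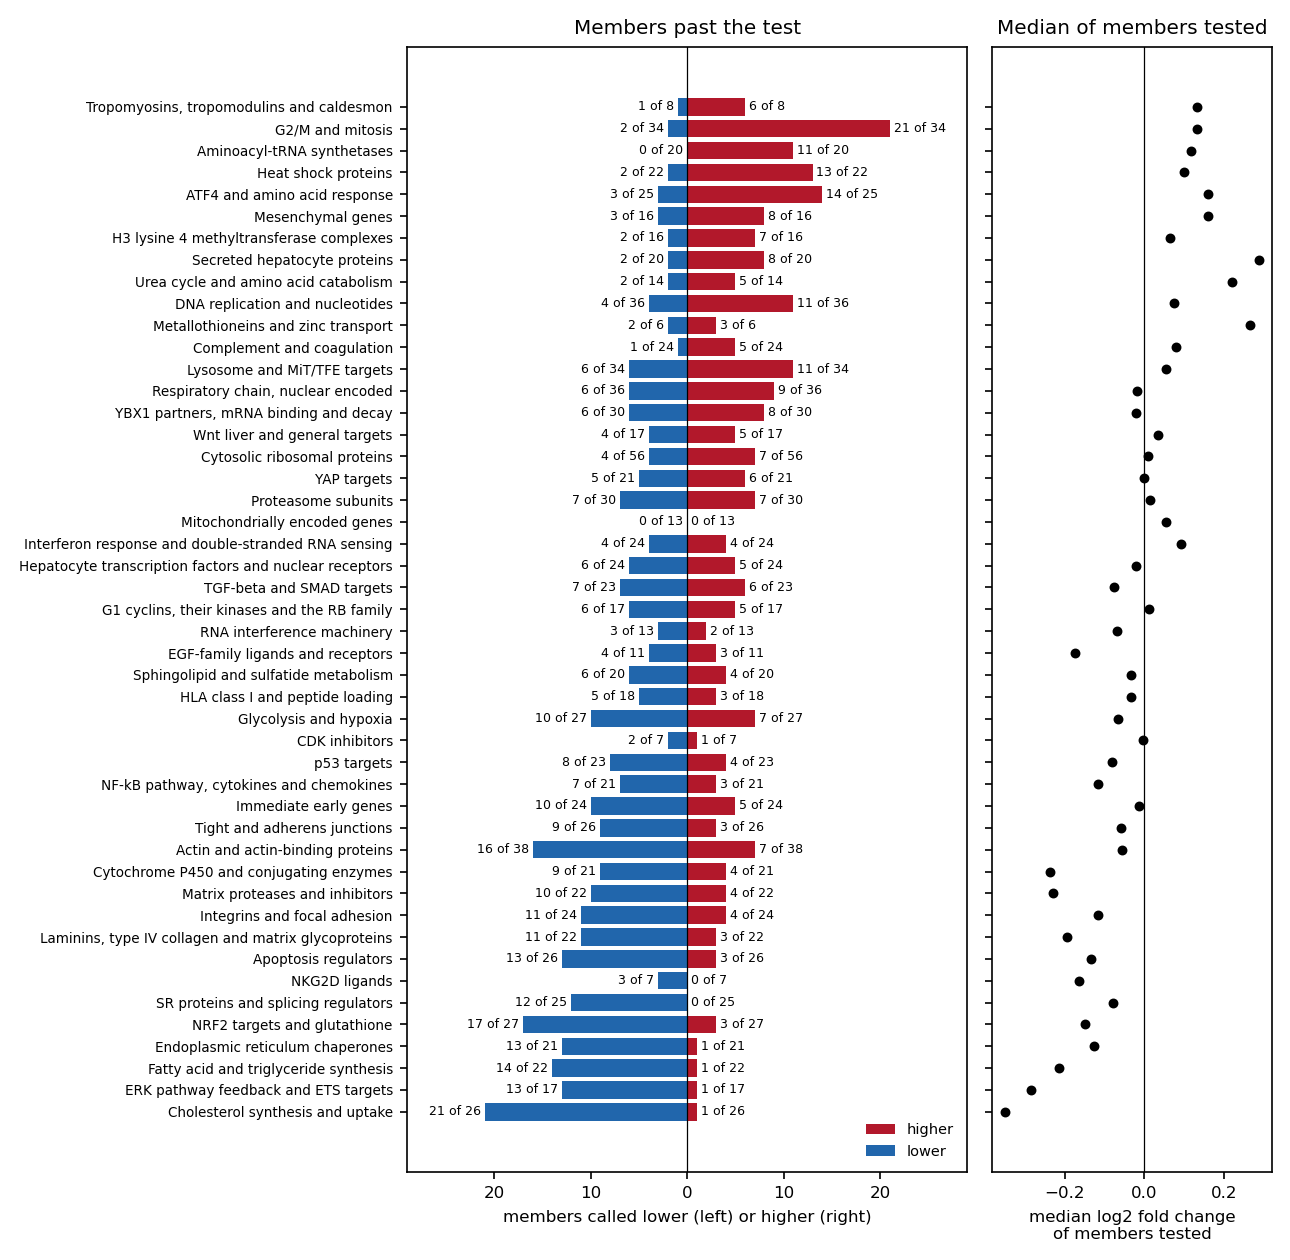
For 47 gene groups, the number of members called higher (red, right) or lower (blue, left) by edgeR among those tested, beside the median log2 fold change of the members tested. Groups are ordered by the balance of higher and lower members, from tropomyosins and mitotic genes at the top to ERK pathway feedback and cholesterol synthesis at the bottom.

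Lipid synthesis genes were lower more often than higher. Of 26 genes of cholesterol synthesis and uptake, 21 fell and 1 rose (median -0.35), with steps from the start to the end of the pathway among them. MSMO1, a sterol demethylase, went from 173, 171 and 165 to 95.7, 92.6 and 83.03 CPM (log2 fold change -0.91 ± 0.04, edgeR adjusted p = 7.89e-16), SQLE, squalene epoxidase, from 275 ± 10.9 to 180 ± 3.51 CPM, CYP51A1 from 154 ± 5.7 to 101 ± 1.21 CPM and NSDHL from 78.8 ± 2.25 to 51.0 ± 1.29 CPM. The regulator SREBF2 changed by -0.34. The rise was in PMVK (0.17), which did not pass without si-NC replicate 1 or si-circASH2 replicate 2, and LSS, TM7SF2 and ACAT2 did not pass. Of the 21 lowered genes 1 held a sequence of the lower-ranked pair in its 3′ UTR, against 23.0% of all lower genes. The share varied between groups, such as 4 of 9 lowered junction genes and 0 of 7 lowered proteasome subunits. Of 22 tested genes of fatty acid and triglyceride synthesis 14 fell and 1 rose (median -0.22), among them the desaturase FADS2 (265 ± 7.02 to 192 ± 3.72 CPM) and the elongases ELOVL5 (192 ± 3.17 to 143 ± 3.99 CPM), ELOVL1 (112 ± 2.84 to 83.9 ± 1.13 CPM) and ELOVL6 (109 ± 3.77 to 82.2 ± 1.09 CPM), while ACLY and ACACA did not pass (-0.07 and 0.03). Sphingolipid genes were mixed, 4 higher and 6 lower of 20, with falls in DEGS1, the last enzyme of ceramide synthesis (106 ± 2.84 to 77.6 ± 3.44 CPM), SMPD1, acid sphingomyelinase (37.7 ± 1.25 to 26.9 ± 1.46 CPM), and UGCG, which makes glucosylceramide (104 ± 5.23 to 85.9 ± 2.3 CPM), beside GAL3ST1.

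Genes that report on growth factor signalling through ERK were lower. Of 17 feedback regulators and targets of the ERK pathway, 13 fell and 1 rose (median -0.28). EGR1, an early transcription factor, went from 35.5, 37.1 and 33.2 to 19.6, 19.6 and 17.6 CPM (-0.90 ± 0.07, edgeR adjusted p = 5.68e-13), and DUSP6, the phosphatase that inactivates ERK, from 155, 155 and 152 to 113, 108 and 111 CPM (-0.47 ± 0.04). SPRY4, an inhibitor of receptor signalling, fell by 0.64 ± 0.05 on the log2 scale. The rise was that of MYC (0.10), and it was lost with DESeq2 and without any of 5 libraries in turn (si-NC replicates 1, 2 and 3 and si-circASH2 replicates 1 and 2), each of which gave 0 members higher. Of 11 tested EGF-family ligands and receptors 3 rose and 4 fell. ERRFI1, the inducible inhibitor of the EGF receptor, fell from 342 ± 7.07 to 211 ± 5.91 CPM, AREG from 31.5 ± 1.44 to 22.3 ± 0.779 CPM and EREG from 176 ± 8.89 to 139 ± 4.45 CPM, against the rise of BTC. The receptors EGFR and ERBB2 did not pass (-0.06 and -0.09).

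Early response genes fell more often than they rose, 10 against 5 of 24 tested. ZFP36, which destabilises AU-rich mRNAs, fell from 122 ± 2.29 to 87.7 ± 1.21 CPM and JUNB from 52.5 ± 3.3 to 35.8 ± 2.2 CPM, NR4A1 changed by -0.87 and DUSP2 by -1.22, while JUN rose (0.27), KLF2 rose and FOS did not pass. Without si-circASH2 replicate 1 the number higher was 3. Of 21 genes of the NF-kB pathway, cytokines and chemokines, 3 rose and 7 fell, with ICAM1, an adhesion molecule (181 ± 1.92 to 129 ± 0.336 CPM), and NFKB2 (68.2 ± 0.797 to 45.1 ± 1.14 CPM) beside BIRC3, against TNFAIP2 (94.6 ± 3.6 to 128 ± 1.04 CPM). YAP targets divided evenly, 6 higher and 5 lower of 21. NT5E, the ectonucleotidase CD73, went from 103, 95.3 and 97.9 to 49.2, 47.8 and 49.2 CPM (-1.02 ± 0.04), whereas ANKRD1 went from 31.6, 29.6 and 30.4 to 52.8, 49.1 and 46.9 CPM (0.70 ± 0.05), AMOTL1 rose from 3.09 ± 0.191 to 5.47 ± 0.625 CPM, and the receptor kinase AXL rose from 55.3 ± 1.54 to 86.1 ± 4.06 CPM. CTGF did not pass (0.08).

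TGF-beta and SMAD targets gave 6 higher and 7 lower of 23. TIMP1, an inhibitor of matrix metalloproteinases, fell from 316 ± 10.7 to 270.1 ± 9.45 CPM, while the ligand TGFB1 rose from 163 ± 3.79 to 189.9 ± 1.28 CPM. Wnt targets gave 5 higher and 4 lower of 17. The Wnt antagonist DKK1 fell from 199.5 ± 7.95 to 131 ± 0.355 CPM and ZNRF3, which removes Wnt receptors, from 73.1 ± 1.71 to 59.8 ± 0.986 CPM, whereas AXIN2, the usual readout of the pathway, rose from 92.5 ± 0.835 to 103 ± 0.188 CPM (0.16 ± 0.04, edgeR adjusted p = 0.00179, and 0.0648 in limma on log2 of FPKM plus 1). The number of Wnt targets higher was 3 without si-NC replicate 1, si-NC replicate 2 or si-circASH2 replicate 1.

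Cell cycle genes past G1 were more often higher than lower, by small amounts, while CCND1 fell. Of 34 genes of G2/M and mitosis, 21 rose, 2 fell and 11 did not pass (median 0.13), led by CENPF, a kinetochore protein, which went from 211, 220 and 211 to 313, 315 and 283 CPM (log2 fold change 0.50 ± 0.04, edgeR adjusted p = 6.69e-12). CDC25B, the phosphatase that activates CDK1, rose from 247 ± 4.02 to 311 ± 4.83 CPM, CENPA, the centromeric histone, from 21.7 ± 0.873 to 29.9 ± 0.328 CPM and TOP2A from 319 ± 5.62 to 374 ± 2.03 CPM. The falls were in CDK1 (-0.11) and KIF11 (-0.10), and the 2 became 0 or 1 without any library in turn. CCNB1, PLK1 and AURKA did not pass (0.08, -0.01 and -0.03). Of 36 genes of DNA replication and nucleotide synthesis 11 rose, 4 fell and 21 did not pass. The helicase subunit MCM2 rose from 150.2 ± 2.65 to 189.6 ± 2.48 CPM, RFC2 from 34.8 ± 1.72 to 43.5 ± 0.633 CPM, POLD1 from 50.4 ± 3.22 to 61.9 ± 2.85 CPM and MCM4 from 379 ± 4.24 to 427 ± 4.11 CPM, whereas RRM2, GINS1, MCM6 and CDC6 fell by 0.15 to 0.20. In limma on log2 of FPKM plus 1 over all genes above 0, the number of mitotic genes higher was 11. There 5 replication genes were higher and 1 lower.

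Around CCND1, its kinases rose: CDK4 from 253 ± 0.821 to 308 ± 13.1 CPM (0.28 ± 0.03) and CDK6 from 77.5 ± 1.55 to 95.1 ± 0.687 CPM (0.29 ± 0.04). E2F5, a repressor E2F, fell from 16.1 ± 0.721 to 9.95 ± 0.42 CPM, and CCNE1, CDK2 and RB1 changed by -0.42, -0.25 and -0.36. In all, 5 of 17 G1 cyclins, kinases and RB family members rose and 6 fell, with 3 higher without si-circASH2 replicate 1. Of 7 CDK inhibitors 2 fell and 1 rose. CDKN1A, the p53-inducible inhibitor p21, went from 128, 125 and 123.4 to 69.3, 72.6 and 80.0 CPM (-0.76 ± 0.05, edgeR adjusted p = 9.03e-15), and CDKN1B, p27, from 40.0 ± 2.06 to 29.5 ± 0.655 CPM (-0.44 ± 0.06). Neither gene's groups overlapped. The rise, CDKN2C (0.18 ± 0.07, edgeR adjusted p = 0.0383), was lost without si-NC replicate 1 or 2 or si-circASH2 replicate 2, which left 0 members higher.

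Genes of cell survival fell more often than they rose. Of 26 apoptosis regulators 13 fell and 3 rose (median -0.13), 8 falling without si-NC replicate 1. Falls were on both sides of the pathway: the inhibitors BIRC3 and MCL1 (489 ± 9.64 to 411 ± 14.5 CPM), and the promoters BID (84.0 ± 1.9 to 65.3 ± 2.93 CPM) and BIK (7.12 ± 0.171 to 3.5 ± 0.358 CPM). Of 23 p53 targets 4 rose and 8 fell. Beside CDKN1A, TNFRSF10B, a TRAIL receptor, fell from 120.2 ± 1.77 to 106 ± 0.312 CPM, whereas the repair gene XPC rose from 25.5 ± 2.21 to 34.2 ± 0.936 CPM and BBC3, a pro-apoptotic gene, from 2.93 ± 0.323 to 5.64 ± 0.818 CPM. The number of p53 targets higher was 2 without si-NC replicate 1 or 2 or si-circASH2 replicate 1 or 3.

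Tropomyosins, which coat actin filaments, rose in part. TPM4, on chromosome 19 (16067021 to 16103005), stood at 296, 308 and 306 CPM with si-NC and at 622, 645 and 588 CPM with si-circASH2, a 2.04-fold rise (log2 fold change 1.03 ± 0.03, edgeR adjusted p = 1.54e-21) that did not pass the test against a fold of 2. TPM1 fell (161 ± 4.34 to 143 ± 4.48 CPM), TPM3 rose (1200.1 ± 9.33 to 1303 ± 51.4 CPM, limma adjusted p = 0.0617 on log2 of FPKM plus 1), and TPM2 passed narrowly with overlapping libraries (0.10 ± 0.04, edgeR adjusted p = 0.0418, and up to 0.315 without si-circASH2 replicate 2). CALD1, caldesmon, rose from 147 ± 6.14 to 177 ± 3.84 CPM. Of the 8 genes with tropomodulins, 6 rose and 1 fell, but 4 rose by DESeq2 and 2 in limma on FPKM.

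Other actin genes fell more often than they rose, 16 against 7 of 38 (median -0.06). LIMA1, which bundles actin, went from 488, 484 and 463 to 284, 287 and 272 CPM (-0.77 ± 0.03, edgeR adjusted p = 7.21e-19). ARPC5, a subunit of the Arp2/3 complex, went from 181, 182 and 177 to 99.3, 98.8 and 98.4 CPM (-0.86 ± 0.04), a call that the deposited FPKM did not give (limma adjusted p = 0.89). FSCN1, fascin of filopodia, rose from 33.2 ± 0.613 to 46.7 ± 1.14 CPM, and the myosin light chain MYL12A fell from 352 ± 0.849 to 286 ± 4.97 CPM. ACTG1 and PFN1 did not pass (0.01 and -0.01). The number higher was 4 without si-NC replicate 1 or si-circASH2 replicate 2. Among 24 integrins and focal adhesion genes 11 fell and 4 rose (median -0.12). ITGB1, the common beta chain, went from 840.3, 837 and 813 to 631, 630.5 and 599 CPM (-0.42 ± 0.03), its partner ITGA2 from 351 ± 23.4 to 177 ± 10.6 CPM, ITGB5 from 219 ± 3.43 to 159 ± 4.64 CPM and the adaptor LIMS1 from 128 ± 0.561 to 83.8 ± 3.27 CPM. CAV1 rose, and so did ITGB3 (0.83). Without si-NC replicate 3 the number higher was 2.

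Matrix and protease genes were lower more often than higher. Of 22 laminins, type IV collagens and matrix glycoproteins 11 fell and 3 rose (median -0.19): LAMA3 fell from 317 ± 13.2 to 203 ± 7.63 CPM, LAMA5 from 102 ± 1.97 to 75.2 ± 2.92 CPM, NID1, nidogen, from 204 ± 8.24 to 146 ± 3.3 CPM and HSPG2, perlecan, from 119 ± 2.89 to 91.7 ± 5.89 CPM. Of 22 matrix proteases and inhibitors 10 fell and 4 rose (median -0.23). The urokinase system moved in both directions. PLAU, urokinase, went from 30.6, 31.4 and 29.4 to 57.7, 63.1 and 58.5 CPM (0.97 ± 0.05, edgeR adjusted p = 1.86e-16), while its receptor PLAUR went from 41.3, 44.4 and 36.9 to 19.04, 19.4 and 20.6 CPM (-1.05 ± 0.07, edgeR adjusted p = 2.02e-14), and PLAT fell. In none of the 3 did the groups overlap.

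Mesenchymal genes rose in 8 of 16 and fell in 3 (median 0.16). COL6A2 rose from 173 ± 5.84 to 231 ± 7.05 CPM, FBN1, fibrillin, from 43.9 ± 1.85 to 60.0 ± 4.44 CPM, and VIM, vimentin, from 7.16 ± 0.667 to 10.5 ± 0.226 CPM, whereas CDH2, N-cadherin, fell from 199 ± 2.33 to 142 ± 6.01 CPM and SPARC fell (-0.84). COL3A1 passed from 0.183 ± 0.144 to 0.538 ± 0.211 CPM, close to the level of 3 counts, and lost its call without si-NC replicate 1 or 3 or si-circASH2 replicate 3 (edgeR adjusted p of up to 0.128). Of 26 genes of tight and adherens junctions 3 rose and 9 fell: CLDN12 fell from 79.5 ± 3.31 to 62.0 ± 0.475 CPM beside CLDN2, while CLDN1 rose from 6.93 ± 0.171 to 10.9 ± 0.21 CPM. CDH1, E-cadherin, did not pass (-0.10), nor did ZEB1, SNAI1 or SNAI2 (-0.07, 0.14 and 0.18).

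Hepatocyte functions did not move as 1 block. Of 20 tested secreted hepatocyte proteins 8 rose and 2 fell (median 0.29), and 6 rose by DESeq2. APOH rose from 46.0 ± 2.02 to 76.0 ± 0.502 CPM (0.73 ± 0.04) and APOB from 52.0 ± 3.51 to 63.8 ± 1.06 CPM beside APOA2, and ITIH2 fell from 79.1 ± 7.26 to 56.5 ± 3.35 CPM. ORM1 and ORM2 passed from levels close to 3 counts (0.144 ± 0.125 to 0.684 ± 0.179 CPM for ORM1). ALB did not pass (-0.21). Of 24 liver transcription factors and nuclear receptors 5 rose and 6 fell: CEBPB rose from 59.1 ± 1.85 to 79.4 ± 3.06 CPM, PROX1 from 38.8 ± 0.853 to 47.0 ± 1.98 CPM and the oxysterol receptor NR1H3 from 12.1 ± 1.98 to 17.1 ± 0.62 CPM (limma adjusted p = 0.0507 on log2 of FPKM plus 1), whereas XBP1 fell from 241 ± 8.99 to 194 ± 9.62 CPM and HNF4A did not pass (-0.05).

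Complement and coagulation genes gave 5 higher and 1 lower of 24. C1R rose from 20.7 ± 0.946 to 30.8 ± 1.4 CPM, C1S from 40.2 ± 1.99 to 48.4 ± 1.23 CPM and F7 from 0.638 ± 0.214 to 1.57 ± 0.298 CPM. The number higher was 3 without si-NC replicate 2, si-circASH2 replicates 2 or 3. The number lower was 4 without si-circASH2 replicate 2 and 2 without replicate 1 of either group. Of 21 cytochrome P450 and conjugating enzymes 4 rose and 9 fell (median -0.24): UGT2B7 fell from 50.3 ± 1.19 to 34.8 ± 1.19 CPM, CYP2B6 from 15.8 ± 1.03 to 8.74 ± 0.439 CPM and CYP4F11 from 116 ± 5.13 to 90.7 ± 2.27 CPM, while CYP1B1 rose from 50.3 ± 2.44 to 68.0 ± 4.09 CPM. Of 14 urea cycle and amino acid catabolism genes 5 rose and 2 fell, with 3 rising by DESeq2 and without replicate 1 of either group. ASL, argininosuccinate lyase, rose from 27.4 ± 1.12 to 40.1 ± 1.5 CPM and HPD from 4.75 ± 1.1 to 8.32 ± 0.153 CPM, and HGD fell from 74.7 ± 2.04 to 56.1 ± 3.03 CPM.

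Stress programmes moved in different directions. NRF2 targets and glutathione genes fell in 17 of 27 and rose in 3 (median -0.15). GPX2, a glutathione peroxidase, went from 755, 728 and 779 to 505, 485 and 517 CPM (-0.59 ± 0.03, edgeR adjusted p = 4.08e-16), SRXN1, sulfiredoxin, fell from 520.2 ± 10.4 to 355 ± 4.44 CPM, and the exporters ABCC2 and ABCC3 fell from 743 ± 11.8 to 539 ± 8.07 CPM and from 161 ± 0.432 to 111 ± 0.634 CPM. TXNRD1 and AKR1B10 fell too, while NQO1 rose (1315 ± 35.7 to 1568 ± 59.3 CPM), as did HMOX1 (0.23) and GCLC (0.13). Endoplasmic reticulum chaperones fell in 13 of 21 and rose in 1 (median -0.13), among them HSP90B1 (925 ± 16.8 to 801 ± 17.5 CPM), PDIA3 (399 ± 10.5 to 342 ± 13.8 CPM) and the stress sensor ERN1 (28.4 ± 2.98 to 21.0 ± 0.28 CPM), while HSPA5 did not pass (-0.06).

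ATF4 targets and amino acid response genes rose in 14 of 25 and fell in 3 (median 0.16). PCK2 rose from 14.7 ± 0.171 to 22.4 ± 0.82 CPM, and ATF4, DDIT3, PSAT1, PHGDH and ASNS rose by 0.13 to 0.34, whereas VLDLR fell from 20.8 ± 1.97 to 10.7 ± 0.468 CPM and the cystine transporter SLC7A11 from 402 ± 16 to 332 ± 8.71 CPM. Heat shock genes rose in 13 of 22 and fell in 2 (median 0.10), with 8 rising and 1 falling without si-NC replicate 1, and 1 falling without si-circASH2 replicate 2. HSPB1 went from 288, 280.4 and 277 to 412, 432 and 429 CPM (0.59 ± 0.03), HSPA1A rose from 405 ± 8.7 to 480.2 ± 9.36 CPM beside CRYAB, and HSPA4L fell from 68.8 ± 1.33 to 36.0 ± 0.949 CPM. HSPA1A and HSPA1B are near-identical copies, so reads could be split between them. Metallothioneins and zinc transporters were tested in 6 of 14, and 3 rose and 2 fell: MTF1, the zinc-sensing factor, rose from 24.9 ± 0.854 to 30.5 ± 1.2 CPM and the exporter SLC30A1 from 57.9 ± 1.93 to 68.3 ± 5.19 CPM beside MT2A, and the importer SLC39A10 fell from 70.8 ± 2.82 to 51.1 ± 0.239 CPM. Lysosome and MiT/TFE genes rose in 11 of 34 and fell in 6. The cathepsin CTSL rose from 578 ± 15.8 to 736 ± 6.45 CPM beside GPNMB, and GLA fell from 209 ± 3.83 to 158 ± 2.04 CPM, as did NPC1, the cholesterol exporter of lysosomes (485 ± 26 to 287 ± 17.4 CPM).

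Energy metabolism genes did not move in 1 direction as groups. Of 27 glycolysis and hypoxia genes 7 rose and 10 fell (63.0%, against 39.7% over all features), with a median of -0.07. LDHA, lactate dehydrogenase, went from 953, 991 and 1062 to 652, 636 and 639.5 CPM (-0.64 ± 0.03, edgeR adjusted p = 1.03e-15), PFKP fell from 212 ± 0.518 to 169.7 ± 3.13 CPM (not past the test with all 12 libraries in the fit, edgeR adjusted p = 0.0512), P4HA1 fell from 45.6 ± 2.64 to 34.6 ± 1.19 CPM, and PFKL rose from 42.8 ± 3.43 to 54.2 ± 1.09 CPM. The number of these genes higher was 2 without si-NC replicate 2, 3 without si-circASH2 replicate 2 and 4 without replicate 1 of either group. Nuclear genes of the respiratory chain gave 9 higher and 6 lower of 36 with a median of -0.02: UQCRC1 rose from 131 ± 4.94 to 151 ± 3.67 CPM, and ATP5B fell from 889.6 ± 15.4 to 759.6 ± 10.4 CPM and ATP5C1 from 130.0 ± 3.73 to 113 ± 4.38 CPM. Their number lower was 3 without si-NC replicate 2 or 3 or si-circASH2 replicate 1. None of the 13 mitochondrially encoded genes passed in edgeR with the settings used throughout or in DESeq2, with 1 at an unadjusted p under 0.05. In other edgeR fits 6 were higher without si-circASH2 replicate 3, 1 without si-NC replicate 2, 1 with a minimum count of 50 and 2 without the robust option (MT-CO1 and MT-ND5, edgeR adjusted p = 0.0272 and 0.0138). MT-CO1 stood at 16438 ± 634 and 17917 ± 1318 CPM.

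Genes of RNA and protein synthesis changed by small amounts. Aminoacyl-tRNA synthetases rose in 11 of 20 (median 0.12), led by AARS (234 ± 5.36 to 319 ± 10.5 CPM), CARS (47.9 ± 0.722 to 57.3 ± 1.53 CPM), QARS (81.5 ± 4.69 to 95.3 ± 2.39 CPM) and EPRS (248 ± 3.15 to 271 ± 6.52 CPM), and 0 fell in edgeR or DESeq2, with 1 at an unadjusted p under 0.05 and 1 falling without si-circASH2 replicate 2. Splicing regulators did the reverse: 12 of 25 fell (median -0.08), and 0 rose in edgeR, DESeq2 or at an unadjusted p under 0.05. QKI fell from 117 ± 2.67 to 90.1 ± 0.752 CPM, PTBP3 from 266 ± 7.22 to 223 ± 7.94 CPM, MBNL1 from 468 ± 11.8 to 405 ± 6.93 CPM and HNRNPH1 from 319 ± 5.76 to 282 ± 9.33 CPM. Cytosolic ribosomal proteins gave 7 higher and 4 lower of 56. RPL13 rose from 375 ± 10.2 to 427 ± 21.6 CPM (limma adjusted p = 0.286 on log2 of FPKM plus 1) and RPS6 from 304 ± 5.96 to 336 ± 8.67 CPM, and RPL4 fell from 781 ± 3.13 to 711 ± 15.1 CPM. The number higher was 11 without si-circASH2 replicate 1. The number lower was 8 without si-NC replicate 1 and 1 without si-NC replicate 2, si-NC replicate 3 or si-circASH2 replicate 1. Ribosomal protein genes have many copies that could take their reads.

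Genes that bind or degrade mRNA, YBX1 partners included, gave 8 higher and 6 lower of 30. YBX1 itself, an mRNA-binding cold shock protein, went from 752, 755 and 765 to 822, 773 and 802 CPM (0.08 ± 0.03, edgeR adjusted p = 0.0383, and up to 0.205 without si-circASH2 replicate 1). G3BP2, a stress granule protein, rose from 113 ± 3.58 to 163 ± 4.46 CPM, PABPC4 from 224 ± 7.46 to 282 ± 5.85 CPM and IGF2BP3, an oncofetal mRNA-binding protein, from 108 ± 4.11 to 139.7 ± 2.19 CPM. The number higher was 4 without si-NC replicate 3, and 5 without si-NC replicate 1 or 2 or si-circASH2 replicate 1. Of 16 genes of the H3 lysine 4 methyltransferase complexes, the home of ASH2L, 7 rose and 2 fell: KMT2C rose from 73.1 ± 4.1 to 92.3 ± 5.74 CPM (limma adjusted p = 0.0576 on log2 of FPKM plus 1), RBBP5 from 42.4 ± 1.3 to 52.7 ± 1.505 CPM and SETD1A from 37.4 ± 1.28 to 45.1 ± 1.02 CPM, while the demethylase KDM6A fell from 86.9 ± 1.27 to 72.5 ± 2.12 CPM. Proteasome subunits were divided, 7 higher and 7 lower of 30, with PSMD4 from 247 ± 7.78 to 288 ± 7.98 CPM, PSMD2 from 348 ± 7.14 to 394 ± 4.79 CPM, PSMA5 from 98.9 ± 2.13 to 111 ± 4.04 CPM and PSMD1 from 208 ± 3.95 to 187 ± 8.77 CPM. The number lower was 3 without si-NC replicate 3 or without si-circASH2 replicate 2 and 4 without si-NC replicate 2, and the number higher was 4 without si-circASH2 replicate 2.

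Genes of the interferon response and of sensing double-stranded RNA, which a transfected siRNA can set off, changed in both directions. Both groups were given an siRNA, so a response that they shared would not show in this comparison. Of 24 such genes 4 rose and 4 fell (33.3%, against 39.7% over all features), and 2 fell by DESeq2 and without si-NC replicate 1, si-NC replicate 2 or si-circASH2 replicate 3. Without si-NC replicate 3, 2 rose. DDX58, the sensor RIG-I, fell from 29.96 ± 1.85 to 21.4 ± 1.29 CPM and IRF9 from 8.17 ± 0.704 to 5.96 ± 0.535 CPM, ISG20 rose from 11.1 ± 0.416 to 14.5 ± 1.8 CPM and OAS3 from 299 ± 11.4 to 322 ± 4.15 CPM, and ISG15 and IFIT1 did not pass (-0.06 and 0.60). The OAS3 call was lost without si-NC replicate 3 (edgeR adjusted p = 0.0992) and on log2 of FPKM plus 1 (limma adjusted p = 0.0719). In the RNA interference machinery 2 rose and 3 fell of 13. DICER1 fell from 70.5 ± 3.07 to 53.8 ± 2.46 CPM, AGO2, the Argonaute that cleaves, from 257 ± 12.6 to 216 ± 5.37 CPM and TNRC6C, with overlapping libraries, from 16.1 ± 1.54 to 12.7 ± 1.71 CPM (limma adjusted p = 0.171 on log2 of FPKM plus 1), and DROSHA rose from 54.4 ± 3.44 to 64.8 ± 3.92 CPM. The number higher was 1 without si-NC replicate 2 or without either of si-circASH2 replicates 1 and 2.

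Ligands that natural killer cells recognise and genes of antigen presentation were also counted. MICA fell from 29.1 ± 0.641 to 21.0 ± 0.751 CPM (-0.47 ± 0.06) and ULBP2 from 9.94 ± 1.27 to 5.62 ± 0.645 CPM (-0.82 ± 0.12) beside MICB, so 3 of 7 tested NKG2D ligands fell, and 0 rose in edgeR, DESeq2 or at an unadjusted p under 0.05. RAET1E was low (0.554 ± 0.388 and 0.717 ± 0.253 CPM) and did not pass. Of 18 HLA class I and peptide loading genes 3 rose and 5 fell, all by less than 0.5: TAP1, a peptide transporter, fell from 25.5 ± 1.11 to 19.7 ± 1.19 CPM and TAPBP, tapasin, from 95.1 ± 3.63 to 81.2 ± 2.33 CPM, and NLRC5, the regulator of class I genes, rose from 10.3 ± 0.747 to 14.4 ± 1.1 CPM. B2M did not pass (0.03).

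Of 30 markers of other cell types 12 had enough counts to be tested, and 4 passed. Fibroblast markers summed to between 36.0 and 38.7 CPM in si-NC and between 49.6 and 54.1 CPM in si-circASH2 libraries, nearly all of it LUM (34.3 ± 1.7 to 48.4 ± 1.8 CPM, log2 fold change 0.50), and 2 of 4 tested rose, LUM and COL3A1, with 1 rising without si-NC replicate 1, si-NC replicate 3 or si-circASH2 replicate 3. DCN stood at 1.67 ± 0.0893 and 2.29 ± 0.246 CPM. Endothelial markers summed to between 27.2 and 29.2 CPM and between 21.5 and 23.4 CPM, and KDR (10.8 ± 0.926 to 7.7 ± 1 CPM, -0.49) and PECAM1 (15.1 ± 0.23 to 12.4 ± 0.553 CPM, -0.28) fell, 2 of 4 tested. PECAM1 did not pass on log2 of FPKM plus 1 (limma adjusted p = 0.175). Leukocyte markers summed to between 151 and 172 CPM and between 177 and 214 CPM, nearly all of it CD68, and 0 of 4 passed in edgeR, with 1 at an unadjusted p under 0.05 and 1 by DESeq2. One was higher without si-NC replicate 2 or either of si-circASH2 replicates 2 and 3, and 1 lower without si-NC replicate 1. The defining markers COL1A1, CDH5 and CD3E stayed at or near 0, so these sums come from 1 or 2 genes each. In such bulk libraries fewer cells of a type and less RNA per cell cannot be told apart, and the part of other cells in the results was not tested.

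The response of HCCLM3 was set against that of Huh7 in a fit of all 12 libraries, with 16946 features tested. The difference of the log2 fold changes (HCCLM3 minus Huh7) passed for 3538 features (20.9%), of which 1626 (9.60%) were more positive and 1912 (11.3%) more negative in HCCLM3. In that fit 5182 features were called in HCCLM3 and 5314 in Huh7, and 2511 in both, which is 48.5% of the HCCLM3 calls and 47.3% of the Huh7 calls. Of these, 956 were higher in both lines, 968 lower in both, 260 higher in HCCLM3 and lower in Huh7 and 327 the reverse. All 587 of the opposite ones passed the test of the difference, which opposite calls in the same fit make nearly certain. The lines share no control library.

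Mitotic and replication genes separated the lines. All 34 genes of G2/M and mitosis had a more positive response in HCCLM3, with a median difference of 0.55, since 33 of them were lower in Huh7 (median -0.41). CENPF changed by 0.50 in HCCLM3 with a difference of 0.80 (edgeR adjusted p = 1.89e-09), and CDC25B had a difference of 0.64. Of 36 replication genes 32 were more positive in HCCLM3, and 31 were lower in Huh7. Over all features 9.60% were more positive in HCCLM3. In Huh7 5314 of 16946 features were called in either direction, and the share lower there is not given here. MCM2 had a difference of 0.70 (edgeR adjusted p = 6.41e-10). CDKN1A, which falls in HCCLM3, had a difference of -1.48 (edgeR adjusted p = 7.47e-12), with a rise of 0.71 ± 0.06 in Huh7. CCND1 fell in both lines and by more in HCCLM3 (difference -0.37 ± 0.05, edgeR adjusted p = 3.35e-06).

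**Figure D5:**
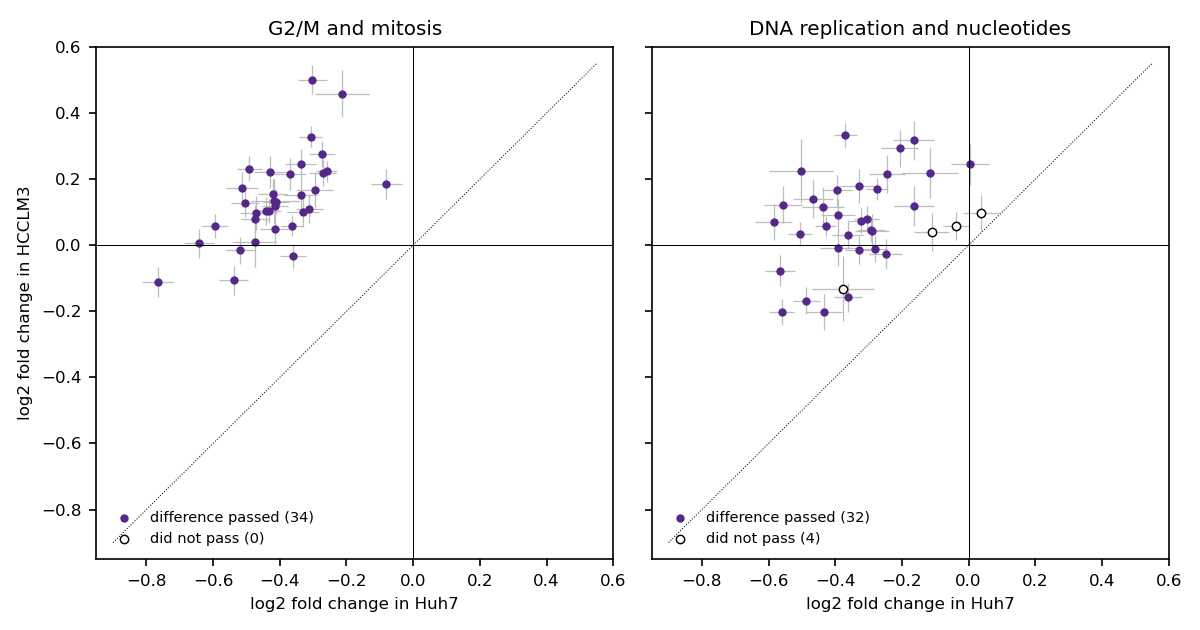
Log2 fold change in HCCLM3 (vertical) against that in Huh7 (horizontal) for 34 genes of G2/M and mitosis (left) and 36 of DNA replication (right), with standard errors as bars and the dotted line of equal response. All points of the left panel and 32 of the right passed the test of the difference (filled) and lie above the line, most of them left of 0 in Huh7 and near or above 0 in HCCLM3.

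Adhesion, matrix and actin genes gave the opposite pattern. The response was more negative in HCCLM3 for 20 of 38 actin genes, 16 of 26 integrin and focal adhesion genes, 13 of 24 laminins and matrix glycoproteins and 10 of 17 ERK feedback genes, and more positive for 2, 1, 1 and 0 of them. LIMA1 had a difference of -0.88 (edgeR adjusted p = 3.12e-10), ITGB5 of -0.64, DUSP6 of -0.87 (edgeR adjusted p = 5.69e-11) and SPRY4 of -0.84. Lipid genes were mostly lower in both lines. Of 26 cholesterol genes 17 were lower in Huh7, where 5314 of all 16946 features were called in either direction. The response was more negative in HCCLM3 for 11 and more positive for 3, with NSDHL (0.18, edgeR adjusted p = 0.125) among those that did not pass.

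Among genes that reached 5 CPM in a group of each line, a limit added after the data were seen, the most negative differences were those of AREG, CLDN2, ALS2CL, MYOF, CIDEC and F2RL1. AREG, amphiregulin, fell in HCCLM3 from 31.5 to 22.3 CPM and rose in Huh7 from 3.05 to 13.9 CPM (difference -2.69 ± 0.15, edgeR adjusted p = 5.59e-12). CLDN2 fell in HCCLM3 and rose in Huh7 from 8.05 to 12.7 CPM (-2.24 ± 0.15). MYOF, a membrane repair protein, changed from 428 to 385 CPM in HCCLM3 and from 9.81 to 28.5 CPM in Huh7, and F2RL1, the receptor PAR2, from 197 to 140.4 CPM and from 17.6 to 37.0 CPM. The most positive were HABP2, ARL2, PLXNC1, SYNE2, KLF2 and SPTSSB. SYNE2, which links the nucleus to actin, went from 28.8 to 59.4 CPM in HCCLM3 and from 30.8 to 26.4 CPM in Huh7 (1.27 ± 0.09, edgeR adjusted p = 3.49e-10), and HABP2, a plasma protease, from 7.26 to 12.1 CPM and from 19.6 to 11.4 CPM. ARL2, a GTPase of tubulin folding, fell in both lines and by more in Huh7 (-0.53 ± 0.07 in HCCLM3 and -1.96 ± 0.08 in Huh7). Several of the largest HCCLM3 changes could not be set against Huh7, where CNTN6, MMP1 and B3GALT5 were at 0 in all libraries. TPM4 rose by less in HCCLM3 than in Huh7 (difference -0.40 ± 0.05), and MICB, GAL3ST1 and LRRC58 fell in both with differences that did not pass (-0.14, -0.12 and -0.07).

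Called genes were spread over levels and chromosomes. The share called rose with the level, from 6.44% higher and 3.67% lower under 1 CPM to 26.1% higher and 32.0% lower above 100 CPM. Chromosome 19 had 23.6% higher and 10.6% lower of 919 genes, and chromosome 7 had 28.1% higher and 19.7% lower of 598, against 26.2% lower and 17.0% higher of 435 on the X chromosome. Some gene families, picked after their values were seen, were uneven. Of 396 tested zinc finger genes named ZNF, 100 were higher (25.3%) and 22 lower (5.56%), with ZNF616 rising from 13.2 ± 0.548 to 29.4 ± 1.06 CPM and ZNF721 from 13.2 to 24.8 CPM, and ZNF532 falling from 98.96 ± 0.68 to 60.3 ± 1.52 CPM. On chromosome 19 it was 47 higher (26%) and 3 lower (1.66%) of 181, and elsewhere 53 higher (24.7%) and 19 lower (8.84%) of 215. Of 44 histone genes 17 were higher and 2 lower, such as HIST2H2BE (19.01 to 30.2 CPM) and H2AFX (88.3 to 114 CPM), though near-identical histone copies make single counts uncertain. Of 240 genes named SLC, nearly all of them solute carriers, 90 were lower (37.5%) and 30 higher, with falls in SLC11A2, an iron transporter (149 to 86.2 CPM), SLC31A1, a copper transporter (79.0 to 47.1 CPM), and SLC6A20, an amino acid transporter (71.5 to 38.0 CPM). Of 55 genes named EIF, which are translation initiation factors and also kinases and binding proteins that act on them, 19 were lower and 10 higher, EIF2A falling from 107 to 52.5 CPM and EIF4A1 rising from 1003 ± 8.32 to 1235 ± 18.7 CPM.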

How the data were processed

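RNA-seq of 12 libraries was used, 3 per group, with groups taken from the labels. Per the labels' protocols, RNA was isolated on columns and libraries were made with a SMARTer kit. The deposited counts are the authors' whole-number counts per gene, and the deposited FPKM values were normalized by the authors per length and depth. Aligner, counter, annotation, strand setting and siRNA sequences are not given in sources used here, so overlapping and antisense genes cannot be told apart.

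Counts of the 6 HCCLM3 libraries were tested with edgeR 4.0.16 in R 4.3.3 (TMM factors, filterByExpr with a minimum count of 10, robust quasi-likelihood fit, Benjamini-Hochberg adjustment over all features, threshold 0.05). glmTreat tested folds over 2, and a fit of all 12 libraries tested the difference between lines. DESeq2 1.42.0 and limma 3.58.1 on log2(FPKM + 1) or log2(FPKM + 0.1), computed from the deposited FPKM, were alternatives, with other factors, filters and each library left out. The method was tested on simulated data. Named genes were the 15 largest rises and falls among called genes that reached 5 CPM in one group without overlap, the 8 largest CPM differences each way, ASH2L, TPM1 to TPM4 and YBX1, up to 4 members of each gene group with the smallest p, and 6 genes each way by difference between lines. Some of the genes so named are not reported here. Members and lists were chosen with earlier results of these data known. Sequences of 7 bases were ranked in the longest annotated 3′ UTR per gene (GENCODE 29) by mean log2 fold change, adjusted for length and base composition. Same-numbered libraries did not deviate together over all tested features (correlations -0.0294 to 0.0148).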

Additional observations from a re-analysis of the deposited data

Results flagged for a closer look

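The response differed between HCCLM3 and Huh7, by the interaction test in edgeR, for 3538 features. The values that follow are differences of log2 fold changes, HCCLM3 minus Huh7, for genes named above.

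Among the largest rises the response was more positive in HCCLM3 for GPNMB (1.63), KLF2 (1.21), ENPP2 (1.19), PRAP1 (1.16), CRYAB (1.08), MT2A (0.995), THSD7A (0.69) and FLNC (0.49). Among the largest falls it was more negative in HCCLM3 for CLDN2 (-2.24), PLAT (-1.85), CDCP1 (-1.54), BIRC3 (-1.499), UPB1 (-1.42), SLC1A7 (-1.29), MROH6 (-1.26), RDH10 (-0.81), GNG12 (-0.44) and CCND1 (-0.37). The limit of 5 CPM in a group of each line was not applied to these rises and falls. In Huh7 the si-NC means were 0.757 CPM for MROH6, 0.792 for PLAT, 1.15 for BIRC3 and 1.24 for CDCP1. They were 1.60 CPM for CRYAB, 1.75 for GPNMB and 3.24 for SLC1A7, and none of these genes reached the limit there. The tropomyosins TPM4 (-0.40), TPM2 (-0.36) and TPM1 (-0.29) had a more negative and YBX1 (0.13) a more positive response in HCCLM3.

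Among the genes chosen for the largest differences, those with a more positive response in HCCLM3 were HABP2 (1.52), ARL2 (1.43), PLXNC1 (1.32), SYNE2 (1.27) and SPTSSB (1.21). Those with a more negative response were AREG (-2.69), ALS2CL (-1.69), MYOF (-1.69), CIDEC (-1.59) and F2RL1 (-1.55).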

How the results depend on the processing

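Against 2965 higher and 2934 lower features, limma on log2(FPKM + 1) over all genes above 0 gave 1850 higher and 1921 lower, and the cause was not tested. DESeq2 gave 2538 and 2607, limma on log2(FPKM + 1) of the genes tested in edgeR 2181 and 2200, and the fit of all 12 libraries 2555 and 2627. Leaving out 1 library at a time gave between 2426 and 2724 higher, between 2551 and 2717 lower, between 24 and 31 features past the 2-fold test and between 3047 and 3198 with a different response in Huh7. Upper quartile factors gave 53.8% higher among called features, against 50.3%. With the replicate number as a block, 3075 were higher and 3055 lower, 32 passed the 2-fold test and 3533 differed between lines. Over all features same-numbered libraries did not deviate together (correlations -0.0294 to 0.0148), and pairing in a part of the genes was not tested. The block also moved cytosolic ribosomal proteins from 7 higher and 4 lower to 16 and 8, and gave 1 mitochondrially encoded gene and 1 leukocyte marker higher and 1 aminoacyl-tRNA synthetase lower, against 0 each. No named gene reversed, and 196 of the 218 named genes called in edgeR kept their call in every alternative. Calls of QARS, PSMA5 and SLC30A1 were lost in limma over all genes above 0 (limma adjusted p = 0.054, 0.0671 and 0.0627). For other genes of the named set, calls that the text states and that were lost elsewhere are given beside their genes. Calls of genes outside the named set were not followed singly through the alternatives. Of 100 gene group counts, 69 stayed within 1.5 times whichever library was left out. In limma on log2(FPKM + 1) over all genes above 0, mitotic genes higher went from 21 to 11 and apoptosis regulators lower from 13 to 6. Actin genes lower went from 16 to 9, junction genes lower from 9 to 4 and ATF4 genes higher from 14 to 8. Cholesterol genes lower stayed between 20 and 21 in every alternative. With 3 libraries a group, genes under about 1 CPM were seldom called.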

Other observations

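Deposited counts and FPKM gave close fold changes for most genes. Of 5281 called genes with at least 5 CPM in a group, 5192 (98.3%) had a log2 ratio of mean FPKM within 0.2 of that of mean CPM, and 8 differed by more than 0.5. ARPC5, a subunit of the Arp2/3 complex, was one of them. Its CPM was 181, 182 and 177 with si-NC and 99.3, 98.8 and 98.4 with si-circASH2, whereas its FPKM was 60.6, 22.4 and 22.2 and then 28.6, 34.0 and 24.9. The groups did not overlap in CPM and overlapped in FPKM. Which of the deposited values reflects the transcript was not tested.

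In the HCCLM3 columns 1029 values were a count of 1, 3524 a count of 2 and 2468 a count of 3.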
